A study of Mus musculus with 24 samples.

Results

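Calcium handling in skeletal muscle was followed through 10 genes of quadriceps muscle: Cacna1s, Ryr1, Jph1, Jph2, Casq1, Casq2, Atp2a1, Atp2a2, Sln and Pvalb. They were taken by gene symbol from the log2 CPM matrix of the authors, and all 10 were present among the 14159 genes that carried a symbol. CPM is the read count of a gene relative to the size of its library. The matrix covered 24 bulk RNA sequencing libraries, with 3 libraries in each of 8 groups. The groups combined 2 strains, C57BL/6J (B6) and MRL/MpJ (MRL, an autoimmune-prone inbred strain), with 4 treatments, and the study asked how strain and implanted material change the response of muscle to injury. The mice operated on were female, 6 to 8 weeks old at surgery, and came from the same commercial breeder. Sex, source and age at collection are not stated separately for the uninjured mice. Injured mice had volumetric muscle loss, which is the surgical removal of a piece of the quadriceps. The defect was filled with saline (the control injury), with decellularized extracellular matrix from pig small intestine (ECM, a pro-regenerative material) or with polyethylene powder (PE, a pro-fibrotic material), and muscle was collected at day 21. Uninjured muscle was the fourth condition of each strain. Whole quadriceps was sequenced, so each library mixed the defect with the muscle around it. The study calls the samples independent without naming the animal behind each, and p-values measure the spread between these samples.

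A contraction of skeletal muscle begins when the voltage sensor in the T tubule opens the calcium release channel of the sarcoplasmic reticulum, and junctophilins hold both membranes together. Calsequestrin stores calcium inside the reticulum, the SERCA pumps return it there, sarcolipin inhibits the pumps, and parvalbumin binds calcium in the cytosol of fast fibres. Fast fibres mainly use SERCA1 and calsequestrin 1, while slow fibres and heart use SERCA2 and calsequestrin 2.

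The libraries carried the markers of fast skeletal muscle. The 8 fibre reference genes, which encode structural and metabolic proteins common to all fibres (such as Acta1, Ttn and Ckm), and the 6 fast fibre genes were detected in every library. The summed CPM of the fibre reference genes lay between 35184 and 74925 in the 18 libraries outside the PE groups. It was 17481 in replicate 2 of PE-treated B6 mice and 11801 in replicate 2 of PE-treated MRL mice, while the other 4 PE libraries lay between 35632 and 43330. Summed CPM of 6 macrophage genes in those same 2 libraries was 4921 and 4213. It was 2650 and 1366 in the other 2 PE-treated B6 libraries, and 217 and 219 in the other 2 PE-treated MRL libraries. In bulk muscle, fewer fibres in the piece and less RNA of a gene per fibre cannot be told apart.

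Levels of the genes spanned a wide range. Per kilobase of the canonical transcript, Atp2a1 (SERCA1) had the highest median over the 24 libraries, 9310 CPM per kilobase, followed by Pvalb (2077), Casq1 (1349), Ryr1 (391), Jph2 (307) and Cacna1s (216). Jph1 had a median of 88.7 CPM per kilobase, Sln of 50.7, Atp2a2 of 33.9 and Casq2 of 6.26. The ranges over libraries did not overlap between Atp2a1 (2069 to 14089) and Atp2a2 (14.5 to 278), nor between Casq1 (285 to 2335) and Casq2 (1.81 to 16.6), so the fast isoform exceeded the slow isoform in every library. The range of Sln, 1.90 to 684 CPM per kilobase, overlapped that of every other gene except Atp2a1.

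The genes lay on 7 chromosomes in GRCm39. The voltage sensor gene Cacna1s was annotated at chr1:135980259-136047560 on the plus strand with 44 exons in its canonical transcript, and Ryr1 at chr7:28702769-28824604 on the minus strand with 106. Jph1 was annotated at chr1:17012318-17168113 (minus, 5 exons), Jph2 at chr2:163178162-163239920 (minus, 6 exons), Casq1 at chr1:172037459-172049328 (minus, 11 exons) and Casq2 at chr3:101993234-102056307 (plus, 11 exons). Atp2a1 was annotated at chr7:126045013-126063423 (minus, 23 exons), Atp2a2 at chr5:122591575-122640903 (minus, 21 exons), Sln at chr9:53742537-53761846 (plus, 2 exons) and Pvalb at chr15:78075314-78091149 (minus, 4 exons). Exons of genes on the opposite strand overlapped those of Cacna1s, Ryr1, Jph1, Casq1, Atp2a1 and Atp2a2. Whether the reads were stranded is not given in the sources used here, so reads of those overlaps cannot be assigned to a strand. No such overlap was found for Jph2, Casq2, Sln or Pvalb.

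Promoter sequence was read for the fast and slow genes whose levels are contrasted here. Casq1 and Pvalb are shown because they moved together across libraries, and Casq2 and Atp2a1 as a slow and a fast gene of the reticulum. Each sequence is the 250 bases upstream of a transcription start in the RefSeq table of GRCm38.p6, read 5′ to 3′ on the strand of the gene. Capitals mark matches, on either strand, to the E-box CANNTG of myogenic factors or to the MEF2 motif, and no 2 matches overlapped. The table gave windows for 7 of the 10 genes, and Sln, Atp2a2 and Jph1 were not matched.
Casq1, chr1:172219896-172220145 (minus strand): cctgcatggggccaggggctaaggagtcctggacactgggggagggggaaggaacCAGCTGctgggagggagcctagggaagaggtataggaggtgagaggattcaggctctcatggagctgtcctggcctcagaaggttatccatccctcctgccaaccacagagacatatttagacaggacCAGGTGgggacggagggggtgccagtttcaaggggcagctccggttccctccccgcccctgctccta
Pvalb, chr15:78206401-78206650 (minus strand): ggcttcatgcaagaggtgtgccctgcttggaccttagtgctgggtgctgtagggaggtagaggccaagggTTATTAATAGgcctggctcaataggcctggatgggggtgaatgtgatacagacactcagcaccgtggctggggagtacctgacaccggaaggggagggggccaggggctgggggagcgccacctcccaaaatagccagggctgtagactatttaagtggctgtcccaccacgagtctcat
Casq2, chr3:102086165-102086414 (plus strand): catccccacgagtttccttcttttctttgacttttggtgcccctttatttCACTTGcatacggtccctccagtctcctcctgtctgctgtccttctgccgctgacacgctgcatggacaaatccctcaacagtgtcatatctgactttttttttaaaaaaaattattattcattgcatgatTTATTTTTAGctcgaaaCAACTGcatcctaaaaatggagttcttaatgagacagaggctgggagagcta
Atp2a1, chr7:126463074-126463323 (minus strand): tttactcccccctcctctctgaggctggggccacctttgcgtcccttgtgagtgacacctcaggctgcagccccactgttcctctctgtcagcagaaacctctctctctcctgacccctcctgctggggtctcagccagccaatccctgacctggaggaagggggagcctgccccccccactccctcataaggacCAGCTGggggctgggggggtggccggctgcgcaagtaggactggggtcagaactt
The Casq1 window held 2 E-boxes, 195 and 67 bases upstream, and the Atp2a1 window held 1, 55 bases upstream. This Pvalb window held no E-box and a MEF2 match 180 bases upstream, while the window of a second Pvalb start held 1 E-box. The Casq2 window held 2 E-boxes, 200 and 52 bases upstream, and a MEF2 match 69 bases upstream. Among 32851 promoter windows of the same length, 66.2% held an E-box and 2.92% a MEF2 match, so E-boxes in these windows were common background.

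**Figure D1:**
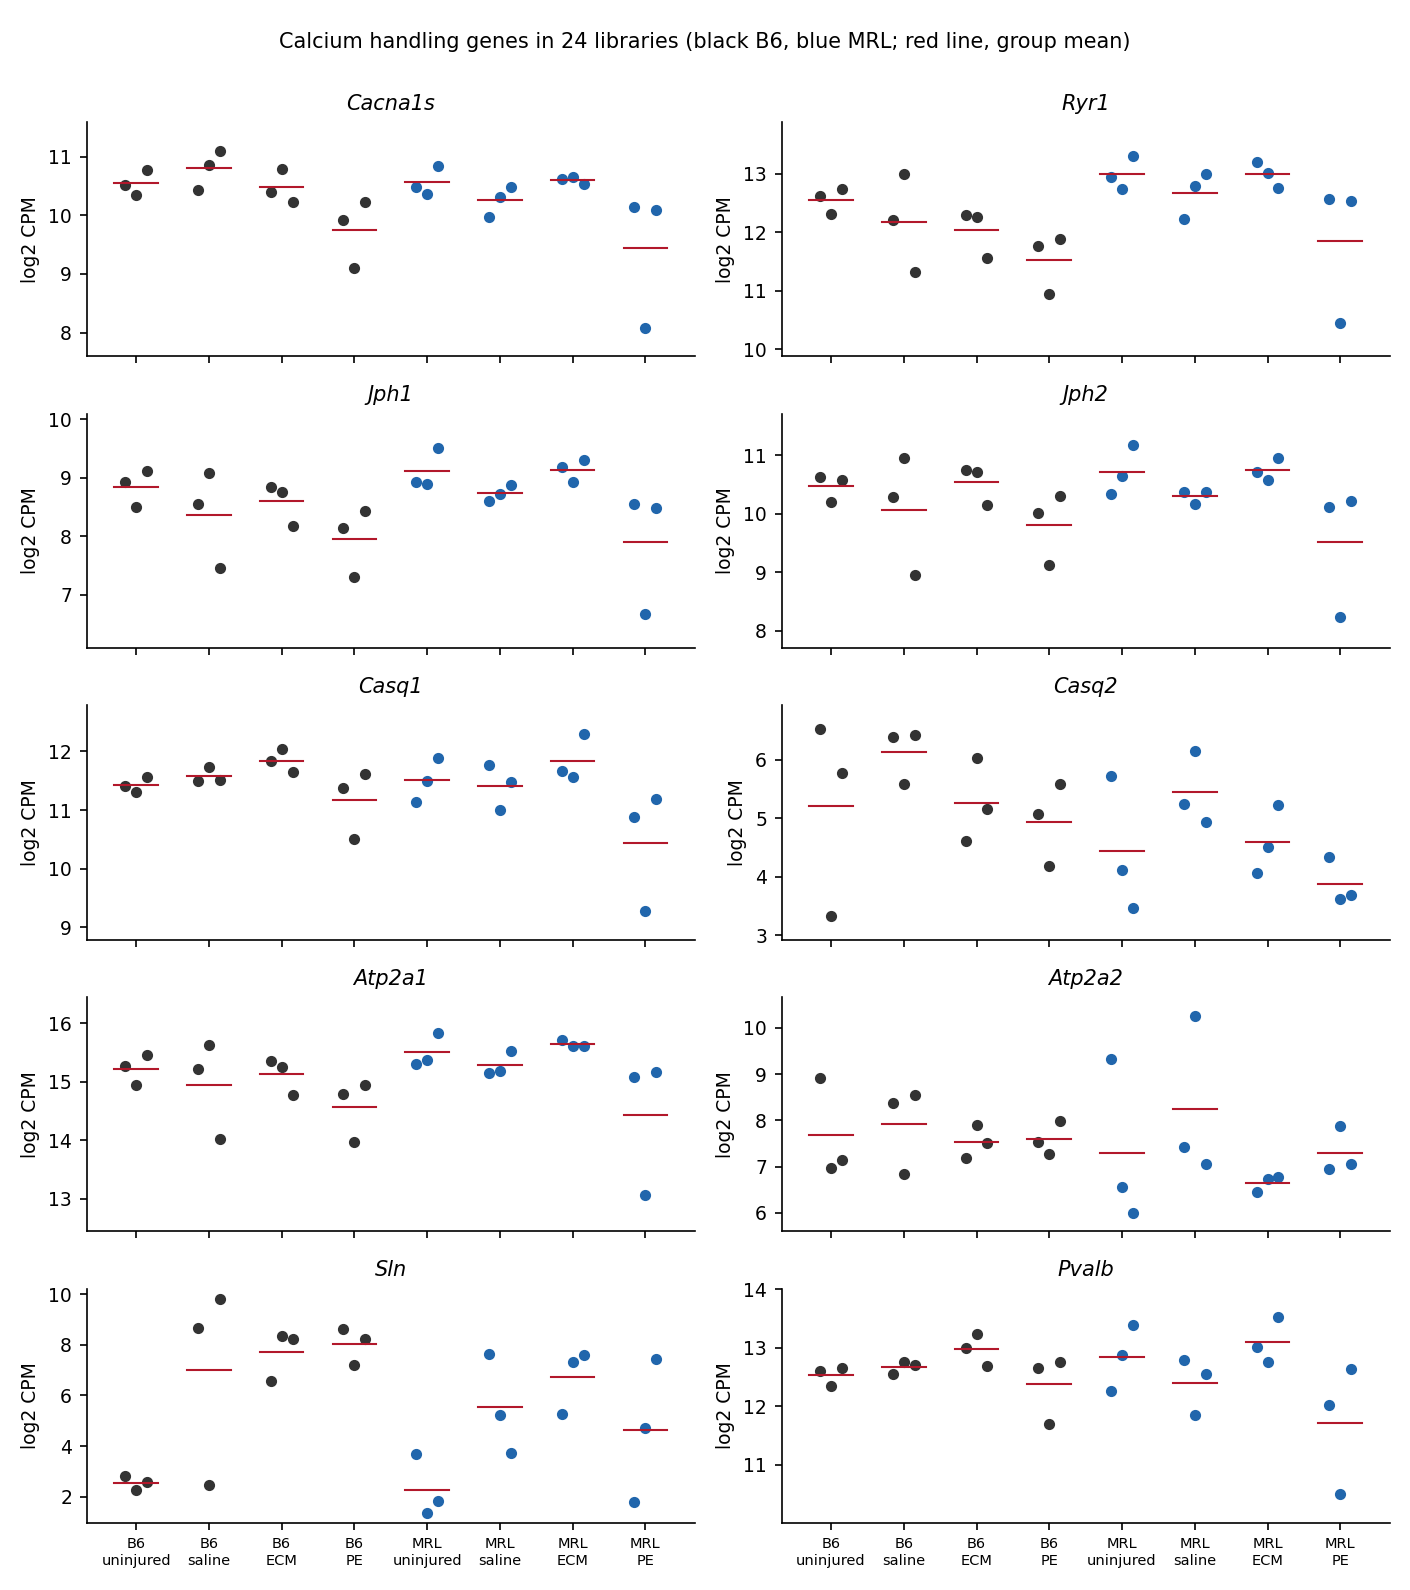
Levels of the 10 genes in log2 CPM (y axes, each panel on its own range) in the 8 groups, with 1 point per library, B6 in black, MRL in blue and the group mean as a red line. Sln spanned 360-fold over the libraries, Atp2a2 19.2-fold and Casq2 9.17-fold, while the other 7 spanned 6.81 to 8.20-fold, with replicate 2 of PE-treated MRL mice the lowest library of all 7.

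Sln, which encodes the SERCA inhibitor sarcolipin, varied most. Sln was at 7.04, 4.71 and 5.84 CPM in the 3 uninjured B6 libraries and at 12.6, 2.50 and 3.43 CPM in the 3 uninjured MRL libraries. These low levels overlapped between the strains. After the control injury Sln was at 409, 5.49 and 901 CPM in B6 mice and at 198, 37.6 and 13.04 CPM in MRL mice. Replicate 2 of saline-treated B6 mice thus stayed at the level of uninjured muscle, while the other 2 libraries of that group held the highest values of the series. Sln was at 95.6, 325 and 302 CPM in ECM-treated B6 mice and at 38.2, 157 and 191 CPM in ECM-treated MRL mice. Sln was at 394, 148 and 302 CPM in PE-treated B6 mice and at 3.37, 25.9 and 171 CPM in PE-treated MRL mice. All 3 PE-treated B6 libraries were above all uninjured libraries, whereas replicate 1 of PE-treated MRL mice lay within the uninjured range.

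**Figure D2:**
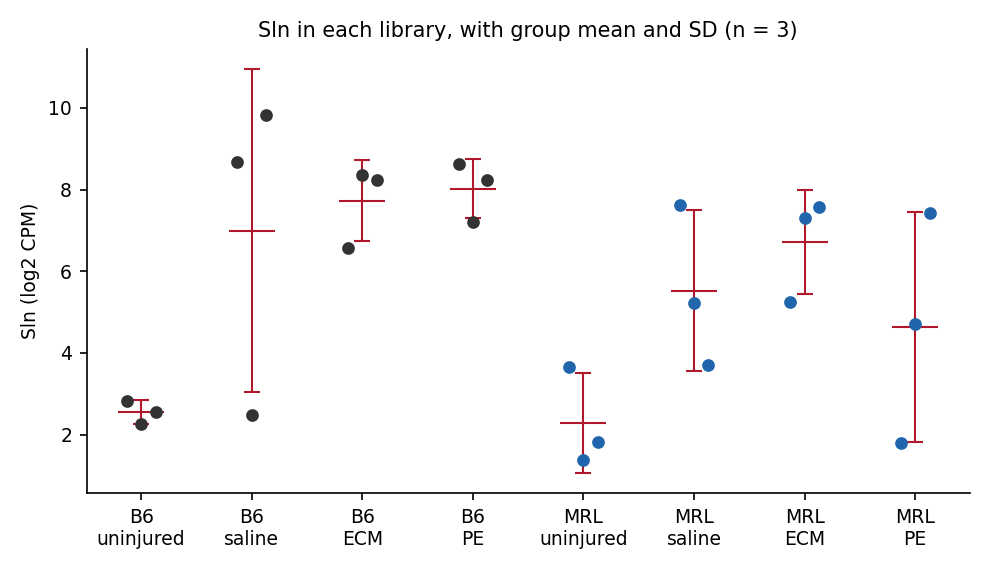
Sln in log2 CPM (y axis) in the 8 groups (x axis), with 1 point per library and the group mean with its SD (n = 3). The mean was 2.55 ± 0.29 in uninjured B6 mice and 8.02 ± 0.73 in PE-treated B6 mice, against 2.28 ± 1.22 and 4.63 ± 2.82 in MRL mice.

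In B6 mice Sln was 44.4-fold higher with PE than in uninjured muscle, a log2 fold change of 5.47 (SE 1.498, 95% interval 2.34 to 8.61, adjusted p = 0.0167, limma with Benjamini-Hochberg adjustment over 14159 genes). It was the only one of the 10 genes called at an adjusted p under 0.05 in that comparison, in which 24.8% of all genes were called and 14.7% were called higher. Averaged over both strains and the 3 injured treatments, Sln was 18.2-fold higher than in uninjured muscle, with a log2 fold change of 4.18 (SE 0.865, adjusted p = 0.0176, limma). Again it was the only one of the 10 genes called, against 9.61% of all genes called and 6.31% called higher. A count of 1 in 10 is close to these background shares. Without replicate 2 of PE-treated B6 mice, the PE effect on Sln in B6 mice was no longer called (adjusted p = 0.059), and without replicate 3 of uninjured B6 or of uninjured MRL mice the effect of injury was not.

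The remaining comparisons of Sln missed the threshold. Relative to uninjured muscle of the same strain, the log2 fold change was 4.44 with saline in B6 mice (adjusted p = 0.303), 5.17 with ECM in B6 mice (adjusted p = 0.124), 3.25 with saline in MRL mice (adjusted p = 1.00), 4.43 with ECM in MRL mice (adjusted p = 1.00) and 2.35 with PE in MRL mice (adjusted p = 0.258, limma). All 3 injured libraries nonetheless lay above all 3 uninjured ones with ECM in both strains and with saline in MRL mice, patterns shown by 17.7%, 6.19% and 5.97% of all genes. With PE, Sln was 10.48-fold lower in MRL than in B6 mice, but the 3 libraries of each strain overlapped and the adjusted p was 0.226 (limma). The log2 value of that difference was -3.39, and it was -1.96 without replicate 1 and -4.78 without replicate 3 of PE-treated MRL mice. The difference between strains in the PE response was itself tested as an interaction and had a log2 value of -3.12 (SE 2.12, adjusted p = 0.631, limma), so a strain difference in the response of Sln was not shown. Without replicate 2 of saline-treated B6 mice, the library at the uninjured level, Sln was called with saline (6.69, adjusted p = 0.00989) and with ECM (adjusted p = 0.0337) in B6 mice (limma). It was then also called lower in MRL than in B6 mice over all treatments (-2.10, adjusted p = 0.0159, against -1.53 and 0.167 with all libraries, limma). That library was singled out by its own Sln value, so leaving it out raises the saline effect by construction. No other of 24 fits that each left out 1 library called Sln with saline or ECM in B6 mice. The share of all genes called in this fit is not given here.

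Sln followed the genes of regenerating fibres from library to library. Over 24 libraries Sln correlated with the mean of 6 regenerating fibre genes (Myh3, Myh8, Myog, Myod1, Mymk and Chrna1, which are on in newly formed or denervated fibres) with Pearson's r of 0.967 and Spearman's rho of 0.978. Permutation within groups gave adjusted p-values of 0.00017 and 0.000425 over 85 relations. The correlation was 0.964 after group means were removed and 0.968 without the 2 libraries farthest from the median of the list, so the relation held within groups. In saline-treated B6 mice the summed CPM of that list was 1189, 74.2 and 1281, in the same order as Sln at 409, 5.49 and 901 CPM. Of the 6 regenerating fibre genes, 5 were called higher with PE in B6 mice, against 14.7% of all genes, and 0 were called with PE in MRL mice, against 9.73% (limma, 0 of 6 also at an unadjusted p under 0.05). A difference between strains was not shown, since 0 of the 6 were called in the interaction of strain with PE and 2 had an unadjusted p under 0.05 (limma). How much of the Sln level came with the amount of regenerating fibre in the piece was not tested.

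**Figure D3:**
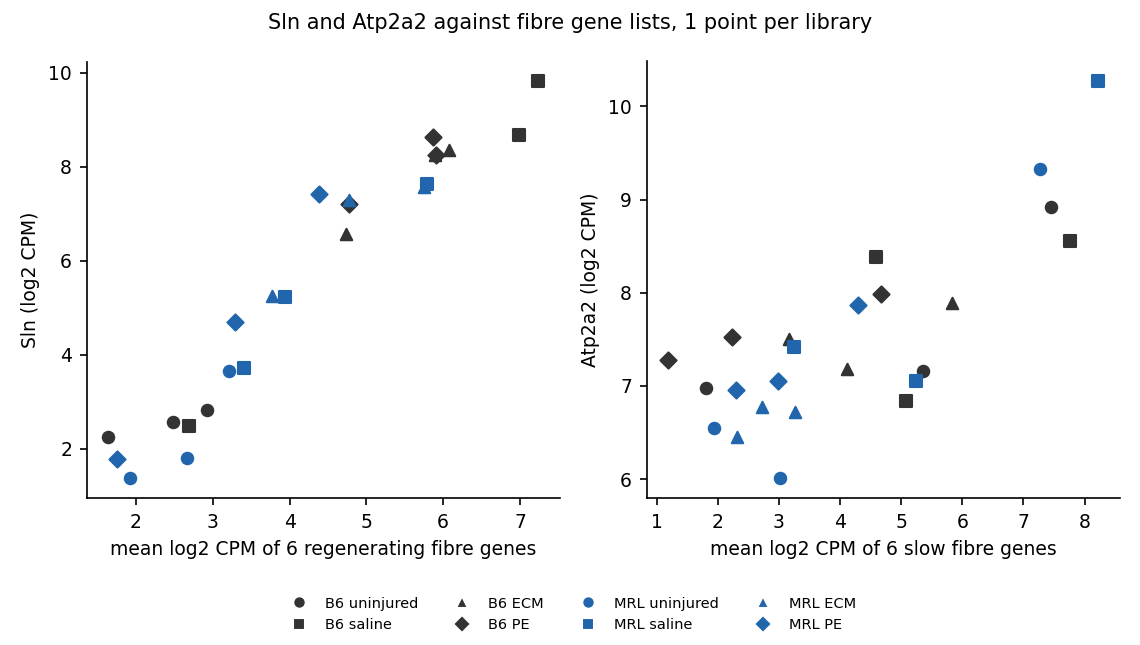
Sln against the mean log2 CPM of 6 regenerating fibre genes (left) and Atp2a2 against the mean log2 CPM of 6 slow fibre genes (right), both in log2 CPM with 1 point per library and groups by colour and symbol. Sln lies close to a line in all groups (r = 0.967), and Atp2a2 increases with the slow fibre genes with more scatter (r = 0.787).

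The release complex comprises Cacna1s (the voltage sensor), Ryr1 (the release channel) and the junctophilins Jph1 and Jph2. Cacna1s was at 10.52, 10.35 and 10.77 log2 CPM in uninjured B6 mice and at 9.92, 9.11 and 10.24 in PE-treated B6 mice. Ryr1 was at 12.62, 12.31 and 12.75 log2 CPM in uninjured B6 mice and at 11.76, 10.95 and 11.89 in PE-treated B6 mice. Jph1 was at 8.92, 8.49 and 9.12 log2 CPM in uninjured B6 mice and at 8.14, 7.30 and 8.43 in PE-treated B6 mice. In all 3 genes every PE library was below every uninjured library, a pattern shown by 24.1% of all genes. The log2 fold changes were -0.79 for Cacna1s (SE 0.409, adjusted p = 0.1501), -1.02 for Ryr1 (SE 0.518, adjusted p = 0.142) and -0.89 for Jph1 (SE 0.435, adjusted p = 0.129, limma), and none was called. Each of the 3 was called when replicate 2 of PE-treated MRL mice, which is in neither group but adds to the shared variance, was left out (adjusted p = 0.0251, 0.0488 and 0.0465, limma). The shared variance enters the tests of all genes. With all libraries 24.8% of all genes were called in this comparison, and the share in the reduced fit is not given here. Jph2 had a log2 fold change of -0.65 with overlapping libraries.

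In MRL mice the log2 fold changes of the same genes with PE were also negative, and none passed the threshold. Cacna1s was at 10.49, 10.37 and 10.85 log2 CPM in uninjured MRL mice and at 10.15, 8.07 and 10.10 in PE-treated MRL mice. Ryr1 was at 12.95, 12.75 and 13.31 log2 CPM against 12.56, 10.45 and 12.54, and Jph2 at 10.34, 10.64 and 11.17 against 10.11, 8.24 and 10.21. Replicate 2 of PE-treated MRL mice, the library with the lowest fibre reference genes, was far below the other 2 in each gene. Cacna1s, Ryr1, Jph1, Jph2 and Atp2a1 had every PE library below every uninjured one, against 20.0% of all genes. The log2 fold changes were -1.13 for Cacna1s (adjusted p = 0.0677), -1.15 for Ryr1 (adjusted p = 0.119), -1.21 for Jph1 (adjusted p = 0.0671) and -1.20 for Jph2 (adjusted p = 0.0876, limma). Of the 10 genes 0 were called by limma in this comparison, in which 9.73% of all genes were called. An unadjusted p under 0.05 was found for 6 of the 10, and the share of all genes at that threshold is not given here. Without replicate 2 of PE-treated MRL mice the log2 fold changes shrank to -0.45 for Cacna1s and Ryr1, -0.59 for Jph1 and -0.56 for Jph2, and 0 of these passed. Without replicate 3 of that group 5 genes were called lower, namely Cacna1s, Jph1, Jph2, Casq1 and Pvalb, so the result turned on which PE library was kept. The share of all genes called in that fit is not given here.

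Genes of the muscle fibre as a whole had lower levels with PE as well, with a negative log2 fold change in 8 of 8 fibre reference genes in each strain, of which 0 were called in B6 mice (4 at an unadjusted p under 0.05) and 1 in MRL mice (limma). In MRL mice the median log2 fold change of the 10 genes was -1.10, that of the 8 fibre reference genes was -1.14, and that of all genes was 0.07. In B6 mice these medians were -0.46, -0.95 and 0.02. Relative to the fibre reference genes, the log2 fold change with PE in MRL mice was 0.0198 for Cacna1s, -0.0011 for Ryr1, -0.06 for Jph1 and -0.05 for Jph2. In B6 mice it was 0.0686, -0.17, -0.0310 and 0.21 for the same genes. Of the 6 macrophage genes 5 were called higher with PE in B6 mice, against 14.7% of all genes called higher (limma). With PE in MRL mice 3 were called higher, against 9.73% of all genes called in either direction (limma). Their summed CPM was 217, 4213 and 219 in the 3 PE-treated MRL libraries and 77.1 to 162 in uninjured MRL mice. When the variance trend was left out, 0 of all 14159 genes were called in that MRL comparison. The part of the macrophage genes in the fold changes above was not tested.

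**Figure D4:**
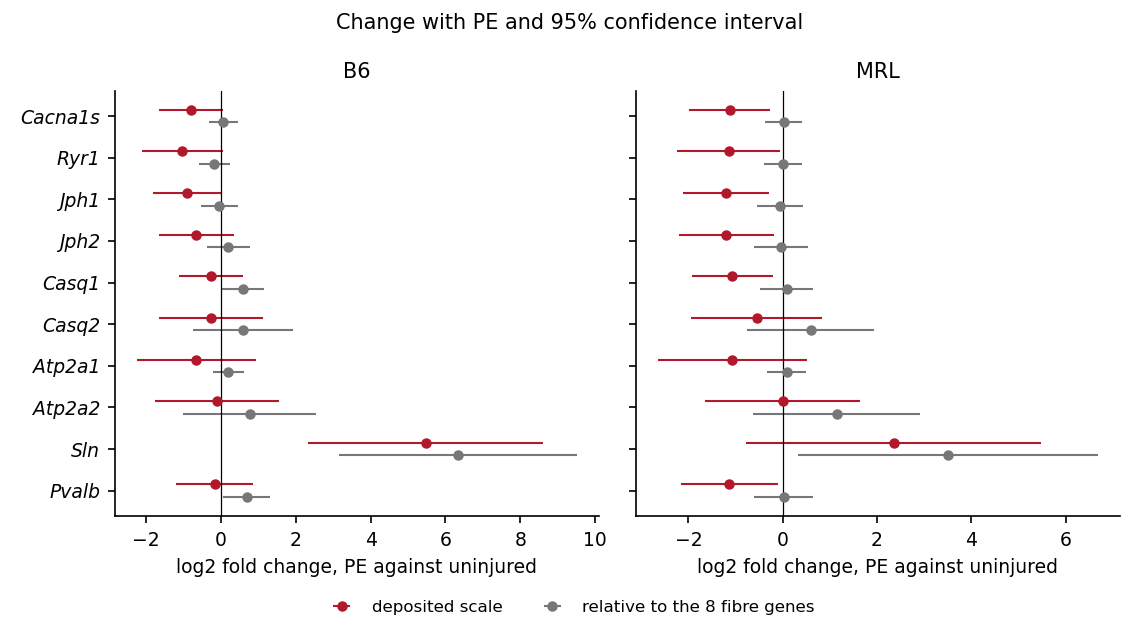
Log2 fold change of each gene with PE against uninjured muscle, with the 95% confidence interval of limma, in B6 mice (left) and MRL mice (right). The estimates are shown as deposited and relative to the 8 fibre reference genes. Only Sln in B6 mice (5.47 as deposited) was called, and in MRL mice scaling to the fibre genes moved Cacna1s from -1.13 to 0.0198 and Jph1 from -1.21 to -0.06.

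The balance of Ryr1 and Cacna1s is given by strain as a description, since this pair was chosen after the values were seen. Averaged over the 4 treatments, MRL against B6 mice gave a log2 fold change of -0.18 for Cacna1s and of 0.55 for Ryr1 (adjusted p = 0.574 and 0.151, limma, with 15.2% of all genes called). Without replicate 2 of PE-treated MRL mice Ryr1 was called, at 0.73 (adjusted p = 0.0105, limma), and Cacna1s was at -0.0053. The share of all genes called in that fit is not given here. The difference of Ryr1 minus Cacna1s in log2 CPM had a lowest, median and highest value of 1.95, 1.98 and 2.11 in uninjured B6 mice and of 2.37, 2.46 and 2.46 in uninjured MRL mice. It was 0.21, 1.77 and 2.13 against 2.24, 2.47 and 2.51 after saline. It was 1.32, 1.48 and 1.89 against 2.21, 2.36 and 2.58 with ECM, and 1.65, 1.84 and 1.84 against 2.37, 2.42 and 2.44 with PE. The value of every MRL library thus lay above that of every B6 library, in each treatment and over all 24. How many other gene pairs separate the strains in this way is not given here. As a ratio of CPM, Ryr1 was 1.16 to 4.37 times Cacna1s in B6 mice and 4.63 to 5.98 times in MRL mice. Reads of both strains were assigned to the same reference transcripts, and the effect of strain variants in these genes on the assignment was not tested.

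**Figure D5:**
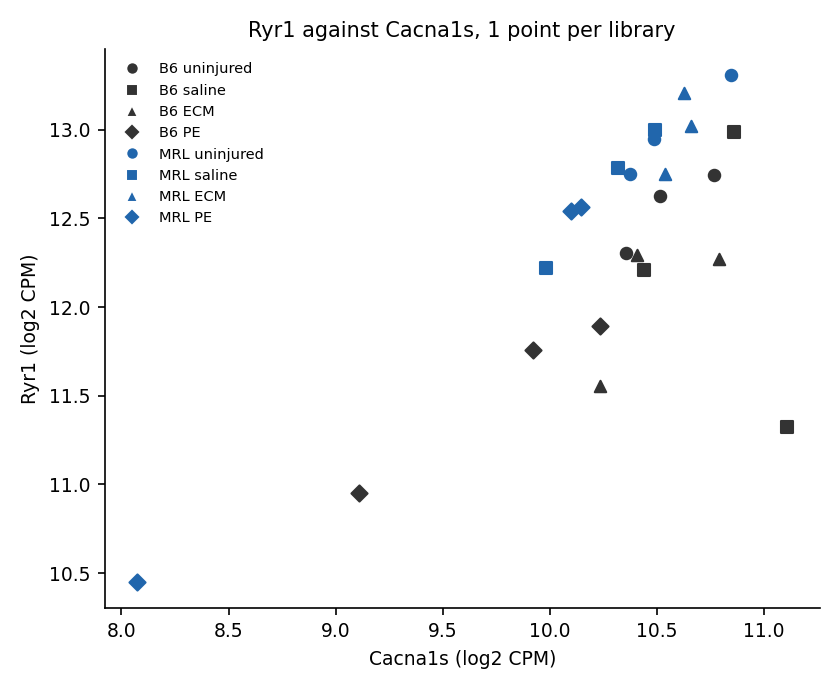
Ryr1 (y axis) against Cacna1s (x axis), both in log2 CPM with 1 point per library and groups by colour and symbol. MRL libraries lie above B6 libraries at matched Cacna1s, and replicate 3 of saline-treated B6 mice lies lowest for its Cacna1s, with Ryr1 only 1.16 times Cacna1s.

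Replicate 3 of saline-treated B6 mice stood apart in several of the genes. Its levels of Ryr1 (11.32 log2 CPM), Jph1 (7.46), Jph2 (8.96) and Atp2a1 (14.02) were the lowest of the 18 libraries outside the PE groups, yet its Cacna1s (11.11) and Sln (9.82) were the highest of all 24. Its fibre reference genes, at a summed CPM of 44168, were within the range of the other libraries outside the PE groups. Without it, Jph1 became called lower with PE in MRL mice, as the only one of the 10 genes. The share of all genes called in that fit is not given here.

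The fast fibre genes Casq1 (calcium store) and Pvalb (cytosolic buffer) moved together. Casq1 was at 11.41, 11.31 and 11.56 log2 CPM in uninjured B6 mice and Pvalb at 12.61, 12.34 and 12.66. In ECM-treated B6 mice Casq1 was at 11.83, 12.04 and 11.64 log2 CPM and Pvalb at 13.00, 13.23 and 12.69, so that both had every ECM library above every uninjured one, a pattern shown by 17.7% of all genes. In PE-treated B6 mice Casq1 was at 11.38, 10.51 and 11.62 log2 CPM and Pvalb at 12.66, 11.70 and 12.76, and both overlapped uninjured muscle. Over 24 libraries Casq1 and Pvalb correlated with r of 0.971 and rho of 0.931 (adjusted permutation p = 0.00017 and 0.000283 over 85 relations), and r was 0.980 within groups and 0.924 without the 2 farthest libraries. With the fibre reference genes Casq1 had r of 0.777 and rho of 0.444 (adjusted permutation p = 0.0742 and 0.285) and Pvalb r of 0.732 and rho of 0.413 (adjusted permutation p = 0.0742 and 0.357). These r were 0.249 and 0.216 without the 2 farthest libraries, so those relations rested on 2 libraries.

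In MRL mice Casq1 was at 11.13, 11.50 and 11.90 log2 CPM when uninjured, at 11.67, 11.57 and 12.30 with ECM and at 10.88, 9.27 and 11.18 with PE. Pvalb was at 12.26, 12.87 and 13.39 log2 CPM when uninjured, at 13.00, 12.75 and 13.52 with ECM and at 12.01, 10.49 and 12.64 with PE. Every PE library was below every ECM library in both genes. The log2 fold change of PE against ECM in MRL mice was -1.40 for Casq1 (adjusted p = 0.0674) and -1.38 for Pvalb (adjusted p = 0.0925, limma). Of the 10 genes 7 were lower without overlap in this comparison, against 15.0% of all genes. By limma 0 of the 10 were called, as were 0 of all 14159 genes. An unadjusted p under 0.05 was found for 6 of the 10, and the share of all genes at that threshold is not given here. Without replicate 3 of PE-treated MRL mice 4 were called (Cacna1s, Jph1, Casq1 and Pvalb), a count given without the share of all genes in that fit. Without replicate 2 the change of Casq1 was -0.82. Fibre reference genes moved with them, with a median log2 fold change of -1.19.

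Atp2a1 (SERCA1), the most abundant of the genes, ranged from 8567 CPM in replicate 2 of PE-treated MRL mice to 58342 CPM in replicate 3 of uninjured MRL mice. Its group mean in log2 CPM was 15.22 ± 0.26 in uninjured B6 mice, 14.57 ± 0.53 in PE-treated B6 mice, 15.50 ± 0.29 in uninjured MRL mice and 14.44 ± 1.19 in PE-treated MRL mice (SD, n = 3). The PE comparisons gave log2 fold changes of -0.65 in B6 and -1.07 in MRL mice (adjusted p = 0.531 and 0.309, limma). Without replicate 2 of the PE group they were -0.35 in B6 and -0.38 in MRL mice, and without replicate 3 they were -0.84 and -1.43. Atp2a1 tracked Jph1 over 24 libraries with r of 0.983 and rho of 0.949 (adjusted permutation p = 0.000567 and 0.00144), and the fibre reference genes with r of 0.907 and rho of 0.909 (adjusted permutation p = 0.000789 and 0.00162). Without the 2 farthest libraries these r values were 0.967 and 0.731. Jph1 and Jph2 correlated with r of 0.967 and rho of 0.882 over the same libraries (adjusted permutation p = 0.000567 and 0.002), and r was 0.933 without the 2 farthest.

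Atp2a2 (SERCA2, also the housekeeping pump of other cells) and Casq2 varied widely within groups. Atp2a2 was at 483, 126 and 143 CPM in uninjured B6 mice and at 645, 93.8 and 64.2 CPM in uninjured MRL mice. After the control injury it was at 333, 114 and 376 CPM in B6 and at 171, 1234 and 133 CPM in MRL mice. Single libraries were therefore high in 3 of these 4 groups by several fold over their own replicates. With ECM it was at 145, 238 and 181 CPM in B6 and at 87.6, 106 and 109 CPM in MRL mice, and with PE at 184, 155 and 253 CPM in B6 and at 124, 234 and 133 CPM in MRL mice. In ECM-treated mice every MRL library was below every B6 library, a pattern of 12.8% of all genes, with a log2 fold change of -0.88 (adjusted p = 0.669, limma).

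Casq2, the calsequestrin of slow fibres and heart, was at 91.7, 10.01 and 54.3 CPM in uninjured B6 mice and at 52.8, 17.3 and 10.97 CPM in uninjured MRL mice. It was at 33.6, 18.01 and 47.8 CPM in PE-treated B6 mice and at 20.2, 12.2 and 12.8 CPM in PE-treated MRL mice. Averaged over treatments Casq2 had a log2 fold change of -0.80 in MRL against B6 mice (SE 0.333, adjusted p = 0.109, limma), which did not pass the threshold. It passed without replicate 2 of uninjured B6 mice, at -1.03 (adjusted p = 0.0159, limma). That library had the lowest Casq2 of the series, so leaving it out enlarges the difference by construction. No other of 24 fits that each left out 1 library called Casq2 between strains. The share of all genes called in this fit is not given here. Atp2a2 and Casq2 were higher in libraries with more of the 6 slow fibre genes (such as Myh7, Tnnt1 and Myl2). For Atp2a2 r was 0.787 and rho 0.637 (adjusted permutation p = 0.00479 and 0.00684), with r of 0.799 within groups and 0.700 without the 2 farthest libraries. For Casq2 r was 0.762 and rho 0.775 (adjusted permutation p = 0.0105 and 0.0243), with r of 0.770 within groups and 0.713 without the 2 farthest libraries. The summed CPM of the slow fibre genes was highest in replicate 2 of saline-treated MRL mice (2206), where Atp2a2 also was highest (1234 CPM), and it ranged down to 23.1 in replicate 2 of uninjured B6 mice, where Casq2 was lowest. Atp2a2 and Casq2 correlated with each other with r of 0.684 and rho of 0.689 (adjusted permutation p = 0.00142 and 0.00215), and r was 0.722 within groups. The part of fibre type composition in these levels was not tested.

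Isoform pairs were compared as differences of log2 CPM within each library, and 9 exact permutation tests (2-sided, libraries permuted within treatment or strain) were adjusted together. Atp2a1 exceeded Atp2a2 by 30.2 to 909-fold in CPM with a median of 231, and Casq1 exceeded Casq2 by 29.0 to 347-fold with a median of 85.5. The log2 ratio of Atp2a2 to Atp2a1 differed between injured and uninjured mice by 0.41 (exact permutation p = 0.528, adjusted p = 0.679), and that of Casq2 to Casq1 by 0.31 (exact permutation p = 0.502, adjusted p = 0.679). Between strains the differences, MRL minus B6, were -0.56 (exact permutation p = 0.293, adjusted p = 0.659) and -0.59 (exact permutation p = 0.118, adjusted p = 0.412). With PE against the other injuries they were 0.60 (exact permutation p = 0.380, adjusted p = 0.679) and -0.08 (exact permutation p = 0.843, adjusted p = 0.843). None of these ratios passed the threshold.

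The ratio of Jph2 to Jph1 was far steadier. Its log2 value was 1.78 ± 0.166 in B6 mice and 1.60 ± 0.120 in MRL mice (SD, n = 12 each), with a difference of -0.18 (exact permutation p = 0.00635, adjusted p = 0.0571). The lowest, median and highest values with ECM were 1.91, 1.95 and 1.97 in B6 mice and 1.52, 1.66 and 1.66 in MRL mice. With PE they were 1.83, 1.88 and 1.88 against 1.57, 1.57 and 1.73. The strains did not overlap in these 2 treatments and overlapped in uninjured and saline-treated muscle. The adjusted p missed the threshold with all libraries and passed it when any of 5 single libraries was left out. The difference of this ratio between injured and uninjured mice was 0.10 (exact permutation p = 0.137, adjusted p = 0.412), and that between PE and the other injuries was 0.04 (exact permutation p = 0.608, adjusted p = 0.684).

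Genes with the most similar profile over the 24 libraries are given as a description, without a test. Those most like Sln were Aif1l (r = 0.970), Rrad (0.964) and Cpne2 (0.963). Those most like Atp2a2 were Tnnc1, the slow troponin C (r = 0.860), Rspo3 (0.853) and Tnnt1, the slow troponin T (0.824), and those most like Casq2 were Csrp3 (r = 0.904), Myom3 (0.856) and Lmod2 (0.852). Unc45b, a myosin chaperone, was most like Cacna1s (r = 0.972), Drosha most like Ryr1 (0.986), and Ppp3ca, a calcineurin subunit, most like Jph2 (0.979). Atg9a was most like both Jph1 (r = 0.982) and Atp2a1 (0.981), and Atp2a1 was also near Pygm, the muscle glycogen phosphorylase (0.977). Zfp641 was most like Casq1 (0.956), and Ube2d1 was most like Pvalb (0.958). The nearest gene was least similar for Atp2a2, followed by Casq2.

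The wider calcium handling list of 58 genes (channel subunits, pumps, exchangers, store-operated entry, mitochondrial uptake and calcium sensors) had 56 in the matrix. With PE in B6 mice 1 was called higher and 3 lower (limma), which is 4 of 56 against 24.8% of all genes called. The 3 lower were Mylk2, the skeletal myosin light chain kinase (log2 fold change -1.55, adjusted p = 0.0216), Capn3, the muscle calpain (-1.16, adjusted p = 0.0409), and Rcan1, a calcineurin regulator (-0.77, adjusted p = 0.0305). The gene called higher, named after its value was seen, was Fkbp1a, whose product binds Ryr1 (0.58, adjusted p = 0.0319). The list median was -0.48 against -0.95 for the fibre reference genes. With PE in MRL mice 1 was called higher and 13 lower, and 34 of 56 had an unadjusted p under 0.05 (limma). The share of all genes at that unadjusted threshold is not given here. The 14 called of 56 compare with 9.73% of all genes called. Without the variance trend 0 of all 14159 genes were called in this comparison, so that all 14 calls were lost. The largest of these changes were those of Ryr3, the release channel of immature muscle (3.20, SE 0.987, adjusted p = 0.0484), Mylk2 (-1.47, adjusted p = 0.0483) and Cacna2d1, a voltage sensor subunit (-1.43, adjusted p = 0.0448, limma). All 14 adjusted p-values lay between 0.0448 and 0.0491, and the list median of -0.60 lay nearer to 0 than that of the fibre reference genes (-1.14).

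With injury averaged over both strains, Bin1, which shapes T tubules, was the only gene of the wider list called (log2 fold change 1.05, adjusted p = 0.0457, limma), against 9.61% of all genes. Between strains 3 of the 56 were called, against 15.2% of all genes, and all 3 were higher in MRL mice, namely Dysf, a membrane repair protein (0.55, adjusted p = 0.0457), S100a1, a calcium sensor that binds Ryr1 (0.32, adjusted p = 0.0407), and Micu2, a regulator of the mitochondrial uniporter (0.21, adjusted p = 0.0477, limma). Without the variance trend none of these 4 genes was called (adjusted p = 0.0537 for Bin1, 0.0546 for Dysf, 0.0514 for S100a1 and 0.0636 for Micu2, limma). No gene of this list was called in the other comparisons by limma, where 0 to 34 had an unadjusted p under 0.05. In fits that each left out 1 of the 24 libraries, the 4 calls with PE in B6 mice were made in 19 to 21 of 24. Of the other genes named from this list, Ryr3 was called in 5, Mylk2 in MRL mice in 6, Cacna2d1 in 11, Bin1 in 8, Dysf in 5, S100a1 in 10 and Micu2 in 8.

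For the other comparisons, none of the 10 genes was called by limma. Between strains within a treatment, 0 of 10 were called in uninjured, saline, ECM and PE muscle, where 2.60%, 2.51%, 2.66% and 3.35% of all genes were called, and 1 had an unadjusted p under 0.05 (Sln with PE). Against uninjured muscle 0 were called with saline or ECM in either strain, where 0%, 0.424%, 0% and 0.0141% of all genes were called for saline and ECM in B6 and then in MRL mice, and Sln alone had an unadjusted p under 0.05 in each. Among injured groups of B6 mice 0 were called for PE against saline, ECM against saline or PE against ECM, where 5.97%, 0.0283% and 0.226% of all genes were called, and 1, 0 and 0 had an unadjusted p under 0.05. In MRL mice 0 were called for PE or ECM against saline, where 0% and 0.00706% of all genes were called, with 2 and 0 at an unadjusted p under 0.05. Differences between strains in the response to treatment were tested as 6 interactions, and of the 60 values 0 were called and 0 had an unadjusted p under 0.05 (lowest adjusted p = 0.631, limma, with 0% to 0.0212% of all genes called).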

How the data were processed

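Quadriceps RNA of 24 libraries, 3 in each of 8 groups named by the labels, was read from the deposited log2 CPM matrix. The authors assigned reads with kallisto to the Ensembl cDNA of GRCm39, summed them to genes with tximport, kept genes above 1 CPM in at least 3 libraries and scaled them with edgeR's TMM method before taking log2 CPM. The values are not counts, so no count model was fitted. A row without a symbol (at most 0.0254% of CPM) was left out. Linear CPM was recovered by removing a prior count of 2, the default of that software, which was assumed. The lowest value, -3.65, then stands for a count of 0 and gives a mean effective library of 25149678 reads, in which 3 counts equal 0.119 CPM, and all 10 genes lay above that floor in every library. Depth per library is not known from this matrix, and the reads per library that the study lists were not used.

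The comparisons were fitted with limma 3.58.1 under R 4.3.3 (8 group coefficients, variance trend, 2-sided, Benjamini-Hochberg adjustment over 14159 genes per comparison, called at an adjusted p under 0.05), after the fit was tested on simulated data. Counts at an unadjusted p under 0.05 are given without the share of all genes at that threshold. Isoform ratios were compared with exact permutation tests, and relations across libraries were permuted within groups 100000 times. Python 3.11.15, pandas 2.3.3, SciPy 1.17.1 and matplotlib 3.10.9 were used. The genes and lists were chosen with earlier results of these data known. The text names the 10 genes, up to 3 called genes of the wider list with the largest change in each comparison, and genes nearest in profile. Other settings were equal totals, log2(CPM + 1), a minimum on mean level, scaling to the fibre reference genes, the compared groups only, no trend, library weights, a replicate block and leaving out each library. Promoters came from RefSeq (GRCm38.p6) and gene positions from GRCm39.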

Additional observations from a re-analysis of the deposited data

How the results depend on the processing

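Leaving out single libraries moved the number of the 10 genes called from 0 to 4 for PE against uninjured muscle in B6 mice, from 0 to 5 for the same comparison in MRL mice and from 0 to 4 for PE against ECM in MRL mice. It moved it from 0 to 1 for saline and ECM against uninjured B6 muscle, PE against saline in B6 mice, injury over both strains and the mean strain difference. These counts are given without the share of all genes called in the same fits. Sln with PE in B6 mice was called in 23 of 24 such fits (5.17 to 5.88) and with injury in 22 (3.95 to 4.56). Values that crossed 0 were those of PE in B6 mice for Casq1 (-0.48 to 0.0709), Casq2 (-1.20 to 0.39), Atp2a2 (-0.44 to 0.53) and Pvalb (-0.36 to 0.17), of PE in MRL mice for Casq2 (-1.04 to 0.0886) and Atp2a2 (-0.65 to 1.01), and of Sln between uninjured strains (-0.96 to 0.19). Among isoform ratios, Atp2a2 to Atp2a1 ran from 0.0058 to 0.97 with injury, from 0.12 to 0.91 with PE and from -0.84 to -0.36 between strains. Casq2 to Casq1 ran from -0.13 to 0.73, from -0.31 to 0.15 and from -0.81 to -0.42, and Jph2 to Jph1 from 0.0533 to 0.14, from 0.0033 to 0.0536 and from -0.20 to -0.15.

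With scaling to the fibre reference genes the median log2 fold change of all genes was 0.88 with PE in B6 mice and 1.22 in MRL mice, against 0.02 and 0.07 as deposited. The log2 fold changes with PE in B6 mice then were 0.0686 for Cacna1s, 0.21 for Jph2 and Atp2a1, 0.60 for Casq1 and Casq2, 0.77 for Atp2a2, 0.70 for Pvalb and 0.0920 for Rcan1. In MRL mice they were 0.0198 for Cacna1s, 0.0192 for Pvalb, 0.0829 for Casq1, 0.0815 for Atp2a1, 0.60 for Casq2 and 1.14 for Atp2a2. Cacna1s was at 0.0491 for PE against ECM in MRL mice and at 0.0132 for injury, and 2 genes (Cacna1s and Ryr1) were called between strains, where 704 of all 14159 genes were called. With equal totals the median of all genes was 0.43 and 0.47, and the values were 0.16 for Casq1, 0.15 for Casq2, 0.33 for Atp2a2 and 0.25 for Pvalb in B6 mice and 0.40 for Atp2a2 in MRL mice.

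Library weights ran from 0.06 to 56.3, and their estimation stopped before its tolerance was reached. They called 2, 1 and 3 of the 10 genes between strains with saline, ECM and PE, and 4 over all treatments. Of all 14159 genes they called 5919, 2411, 7996 and 8053 in these comparisons. Against uninjured B6 muscle they called 1 of the 10 for saline, 1 for ECM and 5 for PE. The same fits called 4785, 2687 and 9004 of all genes. In B6 mice they called 7 for PE against saline and 4 for PE against ECM, beside 9640 and 5579 of all genes. For injury they called 3, beside 4956 of all genes. Pvalb was then at 0.0530 with PE in B6 mice and Cacna1s at 0.0397 between strains. The fit of the compared groups alone called 1 gene for ECM against uninjured B6 muscle. The log2(CPM + 1) scale, the filter on low values and the fit without a trend changed none of the counts of called genes among the 10. Of the whole matrix, PE in MRL mice had 1377 genes called, against 0 without a trend, 2075 with equal totals, 5923 relative to the fibre genes and 2518 with library weights. PE in B6 mice had 3508, against 1487 relative to the fibre genes and 9004 with library weights, the mean strain difference had 2158, against 704 and 8053, and injury had 1361, against 39 and 4956, and 726 with the replicate block.

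The labels do not say whether replicate numbers pair the samples. Libraries with the same number had residual correlations with a median of -0.05 (-0.35 to 0.53). The median was 0.015 for different numbers (-0.51 to 0.45). These correlations cannot show whether samples were paired. The replicate block called 1 of the 10 genes with PE in B6 mice, as without it, and changed no other count among them, but it called 9 genes of the whole matrix for PE in MRL mice, against 1377. All 10 genes lay above the floor of 3 counts in every library. The study lists the reads of each library, but the effect of depth on these results was not tested.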
